A study of Mus with 12 samples.

Results

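The interferon-induced transmembrane (Ifitm) genes encode small membrane proteins that hinder the fusion of enveloped viruses with the membranes of a cell. Ifitm1, Ifitm2, Ifitm3 and Ifitm6 were taken by name from the blood table of a study of atopic dermatitis-like mice. The 4 names matched 4 of the 25247 genes in the table, 1 identifier each, and all 4 were among the 5527 genes tested.

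Whole blood was collected on day 30 from 12 female BALB/c mice that were 6 weeks old when obtained, 3 per group with 1 RNA library per mouse. The Solvent group received only the vehicle, a mixture of acetone and olive oil, on the shaved back. The DNCB group was sensitised with 1% 2,4-dinitrochlorobenzene, a contact sensitiser, and later challenged repeatedly with 0.5% of it. The scMSC and scivMSC groups received the same DNCB course together with human umbilical cord mesenchymal stem cells (MSCs), at 2e6 cells per dose. In the scMSC group 100 µL of cells was injected under the skin, and in the scivMSC group 50 µL was injected under the skin and 50 µL into the tail vein. Because every MSC mouse was also treated with DNCB, the DNCB group is the untreated reference for the cells and the Solvent group is the reference for DNCB. No group received injections without cells, so the cells and the injection cannot be told apart, and the sources used here do not give a separate batch or date for any library.

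IFITM proteins sit in the plasma membrane or in endosomes, and they are best known for restricting influenza and other viruses that enter through endosomes. Type I and type II interferons raise their transcription through the JAK and STAT proteins, and several of them are also present without interferon in leukocytes and in epithelia. IFITM1 is found mostly at the cell surface, IFITM2 and IFITM3 mostly in endosomes and lysosomes, and IFITM6 is a less studied mouse relative found in myeloid cells. The DNCB model is an inflammatory and not a viral setting, and the comparisons ask how far this antiviral family moved in circulating blood after DNCB and after the cells.

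Per the table, all 4 genes lie on chromosome 7 within a stretch of 63.1 kb. Ifitm2 (ENSMUSG00000060591) spans chr7:140954837-140955987 on the minus strand and Ifitm1 (ENSMUSG00000025491) spans chr7:140967221-140969825 on the plus strand. Ifitm3 (ENSMUSG00000025492) spans chr7:141009586-141010770 and Ifitm6 (ENSMUSG00000059108) spans chr7:141015699-141017924, both on the minus strand. The table lists 3 transcripts each for Ifitm1 and Ifitm6 and 1 each for Ifitm2 and Ifitm3, and all 4 are listed as protein coding. The submitters' notes name build mm8, but 87.2% of 21465 genes matched by symbol and chromosome start within 1 kb of their position in a RefSeq table of GRCm38.p6, so these positions are read as GRCm38. The span of Ifitm2 overlaps a predicted gene, Gm45717, which had at most 1 count in any library. The Ifitm genes are similar in sequence, and how reads that fit several of them were divided is not given in the sources used here, so part of each value could belong to another member.

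The libraries held between 52.2e6 and 65.1e6 estimated counts, of which haemoglobin genes took 79.7% to 85.5% in Solvent, 78.4% to 82.8% in DNCB, 84.9% to 86.6% in scMSC and 84.9% to 89.0% in scivMSC. The haem synthesis gene Alas2, a marker of the red cell lineage, stood at 3960 to 4950 FPKM in all libraries, and 6 further erythroid markers summed to 49.1 to 142 FPKM, in keeping with the labelled tissue. FPKM values (fragments per kilobase of gene per 1e6 fragments) were used for levels, and log2 fold changes came from edgeR's quasi-likelihood test on the estimated counts, scaled by each library's total. A gene was called at a Benjamini-Hochberg adjusted p under 0.05 and a change of more than 2-fold. Counts for the 4 genes ranged from 58, for Ifitm6 in the third Solvent library, to 12593, for Ifitm1 in a DNCB library. In bulk blood, fewer cells of a type and less RNA per cell cannot be told apart.

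Ifitm1, the member of the cell surface, was a low-level transcript in the Solvent libraries, at 5.71, 8.22 and 3.41 FPKM. The DNCB libraries held 116, 181 and 146 FPKM. The scMSC libraries held 8.94, 5.03 and 7.28 FPKM and the scivMSC libraries 5.05, 2.37 and 3.17 FPKM. Every DNCB library stood above all 9 others, while the other 3 groups overlapped one another.

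Ifitm2, an endosomal member, started from a higher level, with 21.6, 21.1 and 9.83 FPKM in the Solvent libraries. It stood at 123, 209 and 148 FPKM in the DNCB libraries. After MSCs the values were 23.9, 15.6 and 17.8 FPKM in scMSC and 11.3, 3.03 and 8.39 FPKM in scivMSC. The DNCB libraries were again apart from all others, and the 3 scivMSC libraries lay below the 3 scMSC libraries.

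Ifitm3, the member most studied for restriction of influenza virus, was the most abundant of the 4 in every Solvent library, at 42.7, 33.2 and 27.5 FPKM. Its DNCB values were 88.9, 120 and 92.8 FPKM. The scMSC values were 42.7, 19.3 and 26.3 FPKM and the scivMSC values 25.3, 33.6 and 22.7 FPKM. DNCB was the one group that did not overlap the rest.

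Ifitm6 was the scarcest member in the Solvent libraries, at 5.65, 2.17 and 0.912 FPKM, a spread of 84.3% of its mean. The DNCB libraries held 78.4, 128 and 89.7 FPKM. The scMSC libraries held 2.72, 3.10 and 3.38 FPKM and the scivMSC libraries 4.90, 2.41 and 3.06 FPKM. The DNCB group stood apart from the other 3, which overlapped one another.

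**Figure D1:**
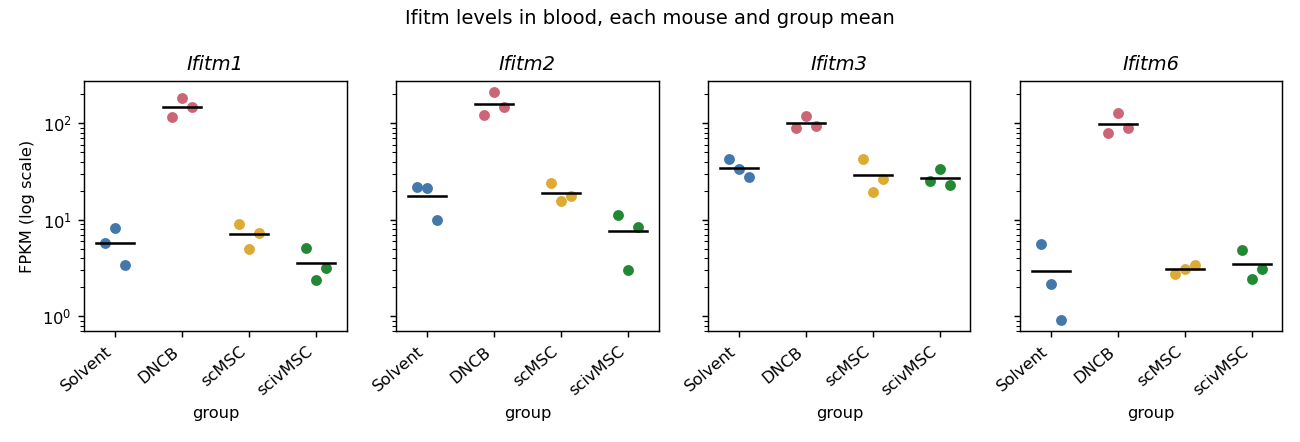
Level of each Ifitm gene (FPKM, log scale) in each of the 12 mice by group, with 1 point per mouse and a bar at the group mean. The DNCB points lie above all other points in each panel, from 88.9 FPKM upwards for Ifitm3 and from 116 FPKM upwards for Ifitm1.

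In DNCB blood all 4 Ifitm genes rose against Solvent. Ifitm6 rose by 5.08 ± 0.55 (log2, SE; adjusted p = 8.68e-06), from a mean of 2.91 ± 2.46 to 98.7 ± 25.9 FPKM (SD, n = 3). Ifitm1 rose by 4.67 ± 0.41 (adjusted p = 1.01e-06), from 5.78 ± 2.41 to 148 ± 32.6 FPKM. Ifitm2 rose by 3.19 ± 0.45 (adjusted p = 9.79e-05), from 17.5 ± 6.66 to 160 ± 44.5 FPKM. Ifitm3 moved least, by 1.55 ± 0.33 (adjusted p = 0.00269), from 34.5 ± 7.69 to 101 ± 17.1 FPKM. As fold changes these are 33.7, 25.5, 9.15 and 2.92. For reference, 15.6% of all tested genes were called higher in this comparison, and 41.5% had DNCB and Solvent FPKM values without overlap. The study's own lists, which were picked on these libraries, hold Ifitm1, Ifitm2 and Ifitm6, so these directions are not independent evidence. Without the first Solvent library, its highest for Ifitm6, the log2 change of Ifitm6 was 6.00.

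Against DNCB all 4 genes were called lower in both MSC groups. In scMSC blood Ifitm6 fell by 5.01 ± 0.55 on the log2 scale (adjusted p = 2.84e-05), to 3.07 ± 0.333 FPKM. Ifitm1 fell by 4.39 ± 0.41 (adjusted p = 6.26e-06), to 7.08 ± 1.96 FPKM. Ifitm2 fell by 3.08 ± 0.45 (adjusted p = 2.15e-04), to 19.1 ± 4.29 FPKM, and Ifitm3 fell by 1.79 ± 0.33 (adjusted p = 0.00115), to 29.4 ± 12.0 FPKM. Of all tested genes 24.9% were called lower in this comparison, and 55.3% had FPKM values without overlap.

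In scivMSC blood the fall against DNCB was 5.38 ± 0.43 for Ifitm1 (adjusted p = 1.25e-06), to 3.53 ± 1.37 FPKM. It was 4.83 ± 0.55 for Ifitm6 (adjusted p = 6.04e-06), to 3.46 ± 1.29 FPKM, and 4.40 ± 0.48 for Ifitm2 (adjusted p = 4.63e-06), to 7.58 ± 4.20 FPKM. Ifitm3 fell by 1.90 ± 0.33 (adjusted p = 1.39e-04), to 27.2 ± 5.67 FPKM. The background here was large, with 62.0% of all tested genes called lower and 73.3% without overlap. The 2 MSC comparisons and the DNCB comparison share the DNCB libraries, so their values stand side by side and are not independent of one another.

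That background bears on the size of each fall, and the haemoglobin share of the total was higher in every MSC library than in every DNCB library. On total-count scaling all tested genes had a median log2 change of 0.06 in DNCB against Solvent. The median was −0.63 in scMSC and −1.53 in scivMSC when either was set against DNCB. Relative to the last median, the log2 changes of Ifitm1, Ifitm2 and Ifitm6 in scivMSC were −3.86, −2.87 and −3.30, whereas that of Ifitm3 was −0.37. TMM scaling, which sets the bulk of genes near 0, gave log2 changes of −3.81, −2.89 and −3.24 for Ifitm1, Ifitm2 and Ifitm6, all called. It gave −0.11 ± 0.33 for Ifitm3 (adjusted p = 0.794), so the fall of Ifitm3 in scivMSC blood was called on one scaling and not on the other. TMM scaling called 3 of the 4 genes lower there, beside 18.9% of all tested genes. In scMSC blood it called all 4 lower, with Ifitm3 at −1.13 ± 0.33 (adjusted p = 0.0195), beside 12.3% of all genes. For DNCB against Solvent it called all 4 higher, with log2 changes of 4.49, 3.04, 1.39 and 5.06 for Ifitm1, Ifitm2, Ifitm3 and Ifitm6, beside 16.1% of all genes.

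**Figure D2:**
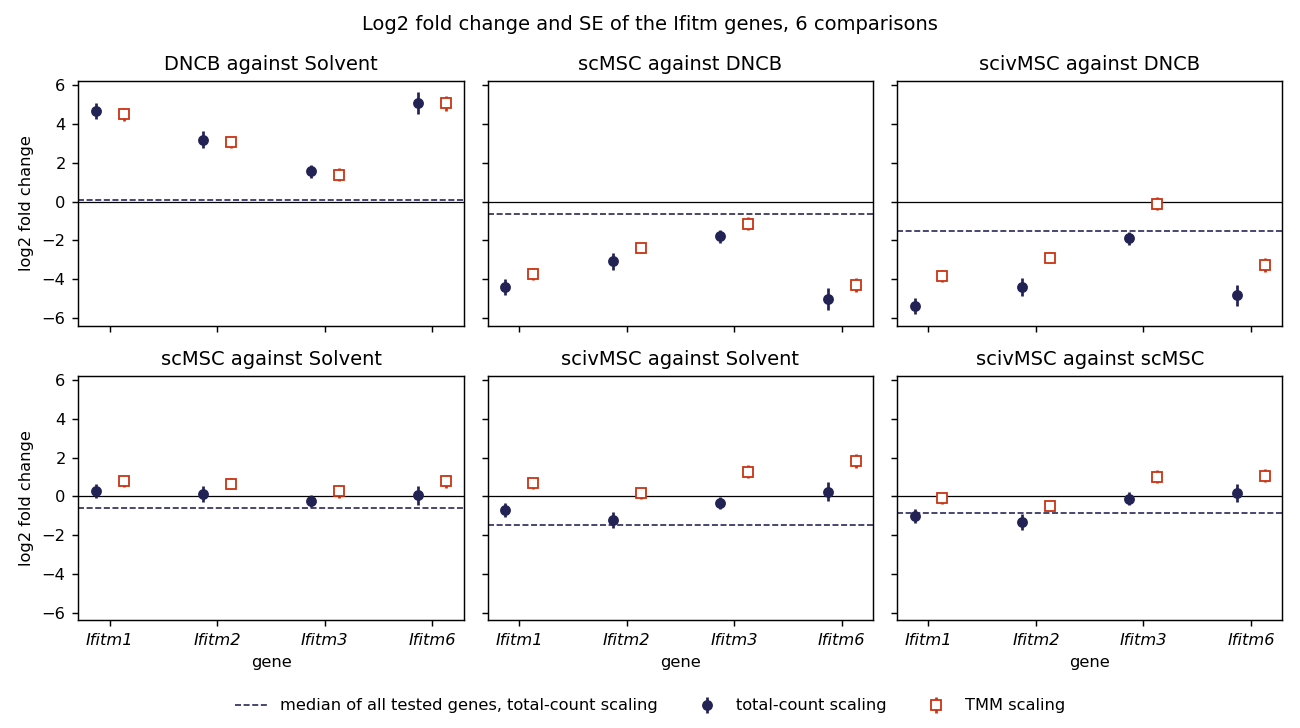
Log2 fold change with its SE for each Ifitm gene in the 6 comparisons, on total-count scaling (filled circles) and TMM scaling (open squares), with a dashed line at the median of all tested genes on total-count scaling. All 4 genes lie well above 0 in DNCB against Solvent, and Ifitm3 in scivMSC against DNCB lies at −1.90 on one scaling and −0.11 on the other.

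The MSC groups were then set against Solvent, the comparison that asks how near the treated mice came to mice without DNCB. In scMSC none of the 4 genes was called on edgeR's test. The log2 changes were 0.28 ± 0.36 for Ifitm1 (adjusted p = 0.579), 0.11 ± 0.42 for Ifitm2 (adjusted p = 0.859), −0.24 ± 0.32 for Ifitm3 (adjusted p = 0.599) and 0.06 ± 0.48 for Ifitm6 (adjusted p = 0.932). A difference under 2-fold would not have been called in any case. The background was 0.326% of genes called higher and 0.326% called lower. None of the 4 genes had scMSC and Solvent values without overlap, beside 47.6% of all tested genes. On TMM scaling the values were 0.77, 0.65, 0.27 and 0.77 for Ifitm1, Ifitm2, Ifitm3 and Ifitm6, the sign of Ifitm3 thus turning, and again none was called higher, beside 7.29% of all genes.

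In scivMSC against Solvent, Ifitm2 was lower by 1.21 ± 0.42 on the log2 scale (adjusted p = 0.0199), whereas its TMM value was 0.15 (adjusted p = 0.661). Ifitm1 stood at −0.71 ± 0.36 (adjusted p = 0.0930), Ifitm3 at −0.35 ± 0.32 (adjusted p = 0.341) and Ifitm6 at 0.25 ± 0.48 (adjusted p = 0.657). The call for Ifitm2 stood beside 59.2% of all tested genes called lower and a median over all genes of −1.47, 0.26 below the value of Ifitm2. Its call was lost without the first Solvent library (adjusted p = 0.0819), the second Solvent library (adjusted p = 0.0668) or the second scivMSC library (adjusted p = 0.0547). On TMM scaling 2 of the 4 genes were instead called higher than in Solvent, Ifitm3 at 1.28 (adjusted p = 0.00624) and Ifitm6 at 1.83 (adjusted p = 8.23e-04), beside 22.4% of all genes, and Ifitm1 turned to 0.68 without a call. The FPKM values of scivMSC and Solvent overlapped for all 4 genes, beside 68.7% of all genes without overlap.

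Between the MSC routes, Ifitm2 was lower in scivMSC than in scMSC by 1.32 ± 0.43 (log2; adjusted p = 0.0299). Ifitm1 was lower by 0.99 ± 0.36 (adjusted p = 0.0463), just short of the 2-fold requirement. Ifitm3 stood at −0.11 ± 0.32 (adjusted p = 0.808) and Ifitm6 at 0.18 ± 0.48 (adjusted p = 0.786). Of all tested genes 30.4% were called lower in this comparison, with a median of −0.87, and 50.5% had FPKM values without overlap, as 1 of the 4 members did, Ifitm2. On TMM scaling Ifitm2 stood at −0.50 (adjusted p = 0.174), while Ifitm3 turned to 1.01 (adjusted p = 0.0331) and Ifitm6 stood at 1.06 (adjusted p = 0.0321), both called higher beside 13.1% of all genes. The direction of a difference between the routes therefore depended on the scaling for Ifitm3, and no member was called in this comparison on both scalings.

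A measure that no scaling can move is the level of one Ifitm gene against another within the same library. The summed FPKM of the 4 genes was 75.7, 64.8 and 41.7 in Solvent, 406, 639 and 476 in DNCB, 78.2, 43.0 and 54.7 in scMSC and 46.6, 41.4 and 37.3 in scivMSC. The make-up of that sum differed in DNCB. Ifitm3 made up 56.5%, 51.3% and 66.0% of it in the Solvent libraries, but 21.9%, 18.8% and 19.5% in the DNCB libraries. It made up 54.6%, 44.9% and 48.0% in scMSC and 54.3%, 81.1% and 60.8% in scivMSC. Ifitm1 had 7.54% to 12.7% of the sum in Solvent and 28.4% to 30.6% in DNCB. Ifitm6 had 2.19% to 7.47% in Solvent and 18.8% to 20.0% in DNCB. Ifitm2 kept a similar share in those groups, at 23.6% to 32.6% and 30.2% to 32.8%, but held only 7.33% in the second scivMSC library.

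**Figure D3:**
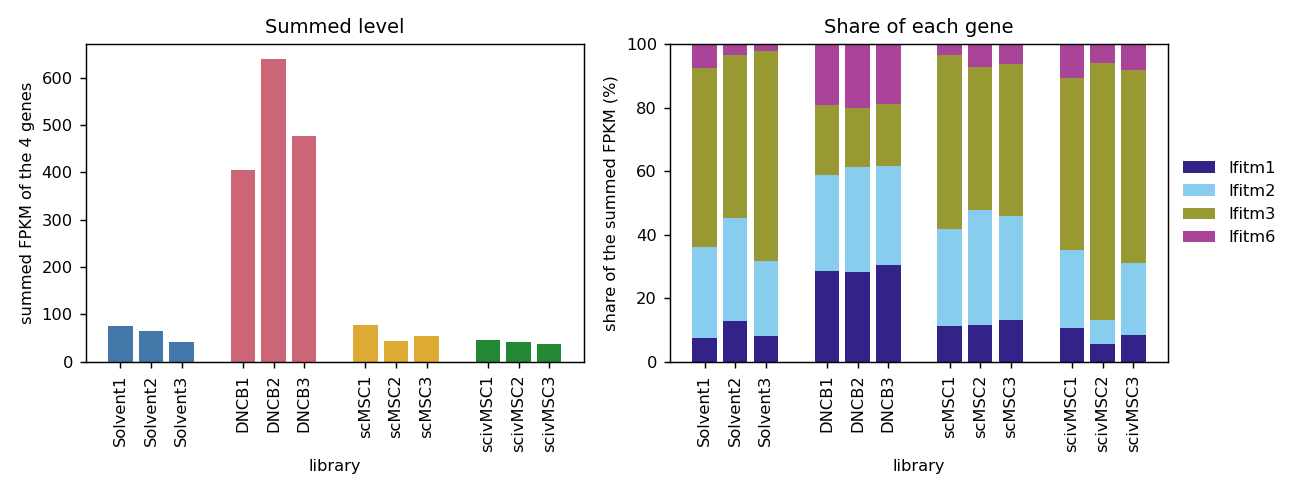
Summed FPKM of the 4 Ifitm genes in each library (left) and the share of each gene in that sum in percent (right), with 1 bar per library. The DNCB sums of 406 to 639 FPKM stand above the rest, and the Ifitm3 share there is 18.8% to 21.9% where no other library is under 44.9%.

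The order of the members differed in the same way. In every Solvent library the order by FPKM was Ifitm3, Ifitm2, Ifitm1 and Ifitm6, with Ifitm1 and Ifitm6 overlapping between mice. In every DNCB library Ifitm2 was the highest and Ifitm1 the next, their ranges overlapping, and Ifitm3 and Ifitm6 followed close together, with Ifitm3 above Ifitm6 in 2 of 3 libraries. In every scMSC library the Solvent order was seen again, with Ifitm3 and Ifitm2 overlapping between mice. The scivMSC libraries also had Ifitm3 first and Ifitm2 next, and Ifitm1 was above Ifitm6 in 2 of 3, but below Ifitm3 the ranges of all members overlapped.

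The log2 ratio of each pair of members was tested across the 4 groups with an exact permutation test over all 15400 ways to place 12 libraries into 4 groups of 3. Adjusted over the 6 pairs, 5 passed. The ratio of Ifitm3 to Ifitm6 was 3.92 ± 1.00 in Solvent, 0.05 ± 0.14 in DNCB, 3.19 ± 0.70 in scMSC and 3.02 ± 0.72 in scivMSC (log2, SD, n = 3; exact p = 0.00747, adjusted p = 0.00896). The ratio of Ifitm1 to Ifitm3 was −2.64 ± 0.55, 0.54 ± 0.14, −2.02 ± 0.21 and −3.00 ± 0.76 in the same order (exact p = 0.00266, adjusted p = 0.00532). The ratio of Ifitm2 to Ifitm3 was −1.04 ± 0.42, 0.65 ± 0.17, −0.57 ± 0.26 and −2.02 ± 1.26 (exact p = 9.74e-04, adjusted p = 0.00532). In DNCB these 3 ratios did not overlap any other group.

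The remaining pairs leave out Ifitm3. The ratio of Ifitm1 to Ifitm2 was −1.60 ± 0.29 in Solvent, −0.10 ± 0.10 in DNCB, −1.45 ± 0.17 in scMSC and −0.98 ± 0.55 in scivMSC (exact p over the 4 groups = 0.00247, adjusted p = 0.00532). The ratio of Ifitm2 to Ifitm6 was 2.88 ± 0.82, 0.69 ± 0.04, 2.62 ± 0.45 and 1.00 ± 0.59 in the same order (exact p = 0.00682, adjusted p = 0.00896). For Ifitm2 over Ifitm6 the scivMSC values overlapped those of DNCB and did not overlap those of Solvent. Ifitm1 over Ifitm6 did not pass, at 1.28 ± 1.1 in Solvent, 0.59 ± 0.10 in DNCB, 1.17 ± 0.51 in scMSC and 0.02 ± 0.04 in scivMSC (exact p = 0.114), and its result hung on the first Solvent library, without which the adjusted p was 0.00460. Between any pair of groups, 3 libraries against 3 cannot give an exact two-sided p under 0.1.

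The remaining Ifitm genes of the table were at the edge of detection. Ifitm5, known from bone-forming cells, had means of 0.122, 0.657, 0.250 and 0 FPKM in Solvent, DNCB, scMSC and scivMSC, with at most 45 counts in a library. Ifitm10, a distant relative also on chromosome 7, had means of 0.212, 0.0654, 0.05 and 0.0185 FPKM. Neither reached 1 FPKM in 3 libraries, so neither was tested.

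Within 100 kb of the cluster the table listed 15 other genes, of which 7 were tested. In DNCB 1 of the 7 was called higher, a share near the 15.6% of all tested genes. That gene was Gm7514, a processed pseudogene that lies between Ifitm1 and Ifitm3. It went from 0.0740 to 2.28 FPKM (log2 change 4.79 ± 1.03, adjusted p = 0.00309) with at most 209 counts, and stood at 0.373 FPKM in scMSC and 0.210 FPKM in scivMSC. It was tested only because the DNCB libraries, at 1.65 to 3.52 FPKM, met the filter that no other library reached, the highest of them being at 0.667 FPKM, so its difference from DNCB was a condition of its being tested. Its falls against DNCB of 2.59 ± 0.90 (adjusted p = 0.0418) and 3.37 ± 0.95 (adjusted p = 0.00514) were called on total-count scaling but not on TMM scaling (adjusted p = 0.12 and 0.114). Pgghg, an enzyme gene beside Ifitm5, stood at 0.748 FPKM in Solvent and 1.70 in DNCB, a log2 change of 1.17 ± 0.47 that was not called (adjusted p = 0.0911; on TMM scaling 1.07 and called, adjusted p = 0.00802). It fell in scMSC by 1.97 ± 0.48 (adjusted p = 0.00671) and in scivMSC by 3.42 ± 0.52 (adjusted p = 4.25e-05).

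The other 5 tested neighbours were not called in DNCB against Solvent on total-count scaling. The proteasome subunit gene Psmd13 had a log2 change of 0.48 ± 0.42, the Golgi transport gene Bet1l 0.51 ± 0.45 and the G protein chaperone gene Ric8a 0.55 ± 0.33. Sigirr, an inhibitor of interleukin-1 and Toll-like receptor signals, stood at −1.01 ± 0.57 (adjusted p = 0.234; on TMM scaling −1.15 and called, adjusted p = 0.0189), and the pseudogene Gm15542 at −0.45 ± 0.51. The highest mean of a non-member in the window was 2.55 FPKM, for Psmd13 in DNCB, so the 4 Ifitm genes were the abundant transcripts of the region in blood.

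**Figure D4:**
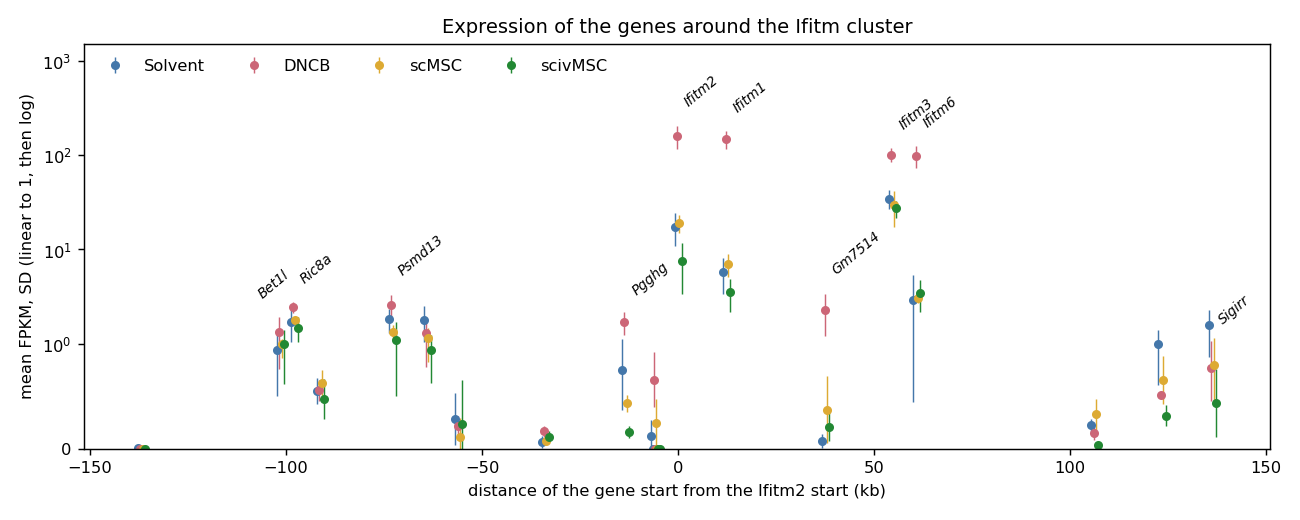
Mean FPKM with SD (n = 3) in each group for the genes within 100 kb of the Ifitm cluster, placed by the distance of each gene's lower end from that of Ifitm2 in kb (vertical axis linear to 1 FPKM and logarithmic above). The Ifitm genes stand above their neighbours, which stay at or below 2.55 FPKM on average.

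The interferon genes that stand above the Ifitm genes in the pathway were examined next. Interferon transcripts themselves were scarcely present, since Ifnb1, Ifng and Ifna4 did not exceed 0.179 FPKM in any library. Of the list of 15 ligands and receptors, 9 were in the table and the 6 tested were receptors. In DNCB 3 of the 6 were called higher and none lower, beside 15.6% of all tested genes called higher. Ifnlr1, the specific chain of the type III interferon receptor, rose by 3.95 ± 0.80 (adjusted p = 0.00197) to 2.15 FPKM. It met the filter on low values only through the DNCB libraries, at 1.76 to 2.91 FPKM against at most 0.274 elsewhere, so a gene with its values could be tested only if it was high in DNCB, and its call is no support for the count. Ifngr2, a chain of the interferon gamma receptor, rose by 1.57 ± 0.41 (adjusted p = 0.0103), and Ifnar2, a chain of the type I receptor, by 1.13 ± 0.31 (adjusted p = 0.0150), the latter at 0.96 on TMM scaling and so under 2-fold. Ifnar1, the other type I chain, stood at −0.27 ± 0.44 (adjusted p = 0.721), Ifngr1 at 0.88 ± 0.30 (adjusted p = 0.0477) and Il10rb, a chain shared by several receptors, at 1.00 ± 0.36 (adjusted p = 0.0588).

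Against DNCB, 4 of the 6 receptors were called lower in scMSC, beside 24.9% of all tested genes, with a median of −1.62 beside −0.63. In scivMSC 6 of 6 were called lower, beside 62.0%, with a median of −2.48 beside −1.53. Ifngr1, Ifngr2 and Ifnlr1 were called lower in both groups on both scalings. Their log2 changes in scMSC were −1.71 ± 0.31, −2.29 ± 0.42 and −3.14 ± 0.77, and in scivMSC they were −2.95 ± 0.33, −3.88 ± 0.45 and −4.81 ± 0.84. On TMM scaling 3 of the 6 were called lower in each MSC group, beside 12.3% and 18.9% of all genes. Ifnlr1 is in all of these counts and medians. Because it met the filter only through the DNCB libraries, its falls against DNCB were a condition of its being tested. Its calls are therefore no support for the counts.

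Of 15 tested signalling genes, 2 were called higher in DNCB and none lower, a share near the 15.6% of all tested genes called higher. The median was 0.14 beside 0.06 for all genes. Those 2, named after their values were seen, were Socs3, a feedback inhibitor of cytokine receptors, at 2.09 ± 0.38 (adjusted p = 8.68e-04) and Stat3, a transducer for many cytokines, at 1.24 ± 0.38 (adjusted p = 0.0271). Several factors that carry the type I interferon signal were not called. Irf9 stood at 0.33 ± 0.38 (adjusted p = 0.603), Jak1 at 0.06 ± 0.29 (adjusted p = 0.922; −0.12 on TMM scaling), Tyk2 at −0.33 ± 0.37 (adjusted p = 0.580) and Irf7 at −0.43 ± 0.30 (adjusted p = 0.355). Stat2 was below the filter. Against DNCB, 6 of the 15 were called lower in scMSC and 13 in scivMSC, beside 24.9% and 62.0% of all tested genes. On TMM scaling the counts were 1 and 6, beside 12.3% and 18.9%, so that the scMSC count was then under the background.

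The Ifitm genes belong to a larger class of interferon-stimulated genes. Of 38 others listed, 27 were tested in DNCB against Solvent, and 5 were called higher and none lower. That share was near the 15.6% of all tested genes called higher, and the median was 0.05 beside 0.06 for all genes. The 5, of which Oas2 and Trim30a were not named by rule, were Oasl1 at 2.30 ± 0.44 (adjusted p = 0.00128), Oas2 at 2.04 ± 0.35 (adjusted p = 4.94e-04), Rtp4 at 1.76 ± 0.45 (adjusted p = 0.00975), Oas3 at 1.71 ± 0.31 (adjusted p = 7.29e-04) and Trim30a at 1.42 ± 0.42 (adjusted p = 0.0231). Oas2 and Oas3 make the 2-5A messenger that activates RNase L, and Rtp4 and Trim30a act in the control of antiviral and inflammatory responses. Each of the 5 was also called lower in scMSC and in scivMSC against DNCB, although Oas3 and Rtp4 were not called in scivMSC on TMM scaling (adjusted p = 0.0844 and 0.0542).

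Several of the best known interferon-stimulated genes were not called. Isg15, a ubiquitin-like modifier, had means of 82.6 FPKM in Solvent and 77.3 in DNCB (log2 change −0.10 ± 0.29, adjusted p = 0.864). Rsad2, the antiviral enzyme viperin, had 41.2 and 47.4 FPKM (0.20 ± 0.26, adjusted p = 0.646). Ifit1, which binds foreign RNA, had 1.58 and 1.64 FPKM (0.05 ± 0.37, adjusted p = 0.945; −0.10 on TMM scaling) and its relative Ifit3 had 1.64 and 1.47 FPKM (−0.16 ± 0.43, adjusted p = 0.844). Bst2, which tethers virus particles, stood at −0.78 ± 0.45 (adjusted p = 0.251), and Mx1 and Oasl2 were below the filter. Whether the difference between these genes and the Ifitm genes exceeds its error was not tested.

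Against DNCB, 10 of the 27 interferon-stimulated genes were called lower in scMSC and 19 in scivMSC, the latter near the background, beside 24.9% and 62.0% of all tested genes. In each MSC group 1 was called higher, beside 1.27% and 1.43% of all genes. The higher ones were Ifit2 in scMSC, at 1.32 ± 0.33 (adjusted p = 0.00717), and Isg20, an RNA-degrading enzyme gene, in scivMSC, at 1.28 ± 0.25 (adjusted p = 3.22e-04). The called genes with the largest falls were Oasl1 in scMSC, at −2.31 ± 0.44 (adjusted p = 0.00145), and Dhx58, a viral RNA sensor, in scivMSC, at −4.64 ± 0.81 (adjusted p = 1.40e-04). On TMM scaling the counts were 5 lower and 3 higher in scMSC, beside 12.3% and 8.74% of all genes, and 9 lower and 6 higher in scivMSC, beside 18.9% and 20.6%.

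**Figure D5:**
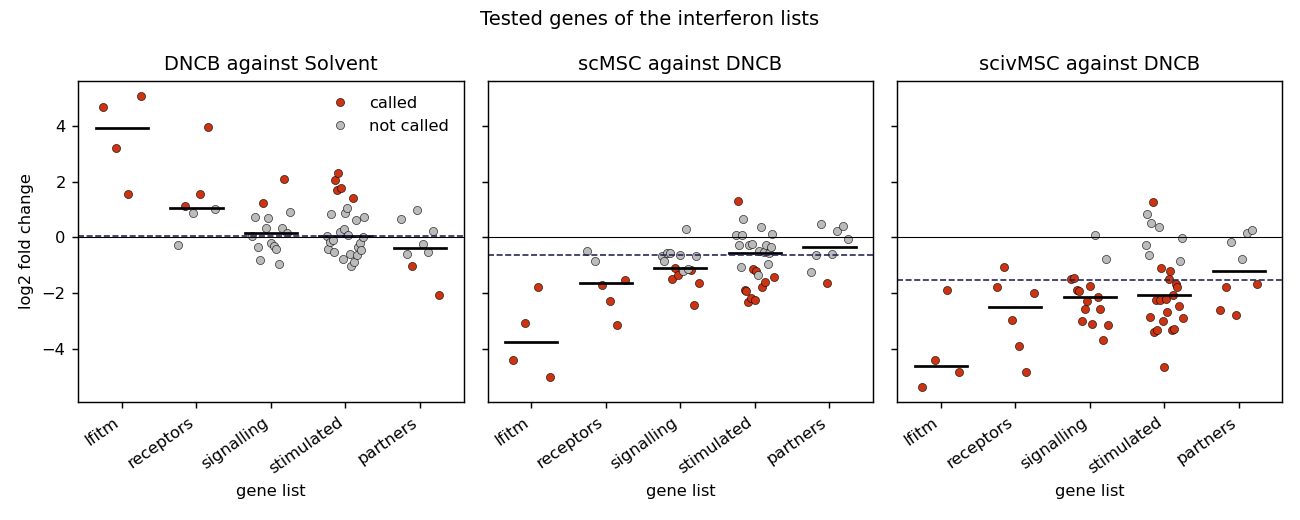
Log2 fold change on total-count scaling of each tested gene of the Ifitm family and 4 interferon lists in 3 comparisons, red where called, with a bar at each list's median and a dashed line at the median of all tested genes. In DNCB against Solvent the median of the interferon-stimulated genes is 0.05, while the 4 Ifitm genes lie between 1.55 and 5.08.

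Genes whose products modify or bind IFITM proteins were listed as well. Of 8 tested in DNCB against Solvent, none was called higher and 2 were called lower, beside 15.6% and 4.87% of all tested genes. Among the latter was Fyn, a kinase that phosphorylates IFITM3, at −1.01 ± 0.31 (adjusted p = 0.0275). The methyltransferase gene Setd7 stood at 0.66 ± 0.47, the palmitoyltransferase gene Zdhhc20 at −0.60 ± 0.44, and Vapa, a sterol-transport partner, at 0.97 ± 0.43. The tetraspanin genes Cd81 and Cd9 stood at −0.54 ± 0.36 and 0.23 ± 0.23, and Vcp, which extracts ubiquitinated proteins, at −0.24 ± 0.36. Against DNCB, 1 of the 8 was called lower in scMSC, Vapa at −1.63 ± 0.44 (adjusted p = 0.0110), beside 24.9% of all tested genes. On TMM scaling Vapa was not called there (−0.91), while 2 of the 8 were called higher, beside 8.74% of all genes. In scivMSC 4 of the 8 were called lower, fewer than the background of 62.0%. On TMM scaling 2 were lower and 3 higher in scivMSC, beside 18.9% and 20.6% of all genes.

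Markers of neutrophils, leukocytes in which Ifitm genes can be abundant, moved in the same direction as the Ifitm genes in the comparisons that involve DNCB. All 10 neutrophil markers were called higher in DNCB, with a median log2 change of 4.96, and all 10 lower in scMSC and in scivMSC, with medians of −3.66 and −4.23. The shares over all tested genes were 15.6% called higher and 4.87% called lower in DNCB against Solvent. Against DNCB, 24.9% were called lower in scMSC and 62.0% in scivMSC. The summed level of the neutrophil markers was 220 to 445 FPKM in Solvent and 6960 to 10900 in DNCB. It was 572 to 716 in scMSC and 243 to 729 in scivMSC, and no marker was at 0 throughout a group. S100a9 and S100a8 had means of 4520 and 2040 FPKM in DNCB, within a mean sum of 8320 FPKM. In Solvent they had 216 and 71.6 FPKM, within 352 FPKM, so these sums mostly follow S100a9 and S100a8. In DNCB against Solvent S100a8 rose by 4.84 ± 0.41, S100a9 by 4.39 ± 0.38, Cxcr2 by 3.51 ± 0.39 and Csf3r by 3.17 ± 0.41, beside 4.67 for Ifitm1, 5.08 for Ifitm6, 3.19 for Ifitm2 and 1.55 for Ifitm3. Of 5 tested monocyte markers 2 were called higher, with a summed level over 8 markers of 8.61 to 22.1 FPKM in Solvent and 24.7 to 44.2 in DNCB; Csf1r rose by 1.73 ± 0.44, and Ly6c2 stood at 1.00 ± 0.47 and was not called. Against DNCB 3 of the 5 monocyte markers were called lower in scMSC and 4 in scivMSC, with medians of −1.87 and −2.56 and summed levels of 12.5 to 12.9 and 8.76 to 10.3 FPKM. On TMM scaling 3 were called lower in scMSC, beside 12.3% of all genes. In scivMSC 2 were then lower and 1 higher, beside 18.9% and 20.6% of all genes. F13a1 alone had means of 6.75 and 7.29 FPKM in scMSC and scivMSC, within mean sums of 12.7 and 9.39 FPKM, so these sums mostly follow 1 marker. In DNCB against Solvent T cell markers were called lower for 9 of 10, B cell markers for 7 of 7 and NK cell markers for 2 of 3. In scMSC against DNCB none of these was called on total-count scaling, while on TMM scaling 9 of 10 T cell markers were called higher, beside 8.74% of all genes. In scivMSC 2 of 10 T cell, 7 of 7 B cell and 2 of 3 NK cell markers were called lower on total-count scaling, beside 62.0% of all tested genes. On TMM scaling none of them was called lower in scivMSC, and 1 NK cell marker was called higher, beside 18.9% and 20.6% of all genes. Of the 8 platelet markers 4 were called higher in DNCB, as was 1 of 2 tested eosinophil and basophil markers, and none of 6 tested erythroid markers was called. The part of these shifts in the Ifitm levels was not tested.

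For each member the 3 tested genes with the most similar pattern were found by the root mean square difference of log2(FPKM + 1) over the 12 libraries, each gene centred on its mean. For Ifitm1 they were Fpr2 (0.354), S100a9 (0.374) and S100a8 (0.421), a chemoattractant receptor gene and both subunit genes of calprotectin. For Ifitm6 they were Wfdc21 (0.432), S100a8 (0.450) and Cstdc5 (0.462). For Ifitm2 they were S100a11 (0.222), S100a6 (0.275) and Tyrobp (0.285), the last an adaptor of myeloid and NK cell receptors. For Ifitm3 they were Oas3 (0.259), Rtp4 (0.263) and Glrx (0.264), so that 2 of its 3 nearest genes were on the interferon-stimulated list. Among the members themselves the distance was smallest for Ifitm1 and Ifitm6 (0.533) and largest for Ifitm3 and Ifitm6 (1.356). These distances are a description over 12 libraries that share their groups and their scaling, and a gene with a smaller change lies nearer to other genes with small changes.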

How the data were processed

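Whole-blood RNA of 12 mice in 4 groups of 3 was analysed from 1 deposited table. The authors deposited estimated counts and FPKM values of every gene in each library, and no value column was left without a sample. The submitters' processing notes name HISAT2 2.0, StringTie 1.3.0, Bowtie 0.12.2 and mm8, without roles or settings. Strand use, and the handling of reads that map several times, are not given in the sources used here. Of the deposited estimated counts from 1 to 12, 54.8% were 4, 8 or 12, so 1 fragment may be worth several counts, and dividing counts by 4 was tried. Totals were 52.2e6 to 65.1e6, and the lowest count of a member was 58.

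The 4 groups were fitted together with edgeR 4.0.16 (quasi-likelihood, legacy option, total-count scaling) on genes with at least 1 FPKM in 3 libraries. P-values were adjusted over all 5527 genes. Fold changes from limma 3.58.1 used log2(FPKM + 1) or log2(FPKM + 0.1), and DESeq2 1.42.0 was a further alternative. Ratios between members used FPKM without a pseudocount and exact permutation tests. R 4.3.3, Python 3.11.15 and scipy 1.17.1 were used. Scripts were tested on simulated data.

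The genes, lists and tests were chosen with earlier results of these data known. Named genes are the Ifitm genes; the tested receptors, partners and neighbours; preset signalling, interferon-stimulated and marker genes; the called interferon-stimulated gene with the largest change in each direction; and the 3 genes most similar to each member. Some genes this rule names are not reported here. No sequence is printed.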

Additional observations from a re-analysis of the deposited data

Results flagged for a closer look

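The change against DNCB was flagged as differing between the MSC routes for 2 genes on total-count scaling, of which only Ifitm2 was called. For Ifitm2 the log2 change in scivMSC minus that in scMSC was −1.32 (edgeR, adjusted p = 0.0299), with all 3 scivMSC libraries below all 3 scMSC libraries. For Ifitm1 it was −0.99 (adjusted p = 0.0463), short of the 2-fold requirement. Of all tested genes 30.4% were called lower between the routes, with a median of −0.87, and 50.5% had FPKM values without overlap. Relative to that median, Ifitm2 stood at −0.45 and Ifitm1 at −0.12. On TMM scaling the differences were −0.50 (adjusted p = 0.174) and −0.09 (adjusted p = 0.833). Groups of 3 were too small for a test of single outlying libraries.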

How the results depend on the processing

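In the 3 comparisons that involve DNCB, 274 of 276 member fold changes under the 23 alternatives kept their direction and their call. The other 2 were Ifitm3 in scivMSC against DNCB, at −0.11 with TMM scaling (adjusted p = 0.794) and with DESeq2 (adjusted p = 0.820). Of the 23 alternatives, 12 left out 1 library and kept total-count scaling, so many of the 276 values do not bear on the scaling. Leaving out the first scMSC library, for example, kept Ifitm1 in DNCB against Solvent at 4.67, the value of the full fit. In scivMSC against Solvent the number of members called lower went from 1 to 0 with TMM scaling, with haemoglobin left out of the total, with DESeq2 and with the 2 groups alone, and the number called higher went from 0 to 2 with TMM scaling and with DESeq2. Leaving out 1 library gave 0 to 2 called lower and 0 to 1 called higher. The library behind the call of Ifitm6 (1.17, adjusted p = 0.0311) was the first Solvent library, and that behind the added call of Ifitm1 (−1.06, adjusted p = 0.0167) was the first scivMSC library. In scivMSC against scMSC the number called lower went from 1 to 0 with TMM scaling, DESeq2, a mean FPKM of at least 5 or the 2 groups alone, and to 2 with limma on log2(FPKM + 0.1). The number called higher went from 0 to 2 with TMM scaling and with DESeq2. Leaving out 1 library gave 0 to 2 called lower, with 0 without scMSC replicate 1 or 3 or scivMSC replicate 2 or 3, and 2 without scMSC replicate 2 or scivMSC replicate 1. The 5 of 6 ratio pairs that passed stayed within 5 to 6. The cause of these changes was not tested.

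Directions turned mainly between scalings. With DESeq2 the log2 changes in scivMSC against Solvent were 0.70 for Ifitm1, 0.17 for Ifitm2 and 1.33 for Ifitm3, where TMM scaling gave 0.68, 0.15 and 1.28, and Ifitm3 stood at 0.10 with haemoglobin left out. Ifitm3 in scMSC against Solvent was 0.27 with both, and in scivMSC against scMSC it was 1.01 with TMM scaling, 1.06 with DESeq2 and 0.14 with haemoglobin left out. Over the fits without 1 library, Ifitm2 in scMSC against Solvent ranged from −0.17 to 0.30, Ifitm3 in scivMSC against scMSC from −0.34 to 0.26, and Ifitm6 from −0.36 to 0.98, −0.18 to 1.17 and −0.15 to 0.39 in scMSC against Solvent, scivMSC against Solvent and scivMSC against scMSC. In DNCB against Solvent, Ifit1 was −0.10 with TMM scaling and with haemoglobin left out and −0.05 with DESeq2, and Jak1 was −0.12, −0.12 and −0.08. Without 1 library Ifit1 ranged from −0.10 to 0.17, Jak1 from −0.15 to 0.22, Isg15 from −0.28 to 0.04, Ifit3 from −0.36 to 0.05, Rsad2 from −0.01 to 0.39 and Vcp from −0.40 to 0.16. edgeR without its legacy option, chosen after seeing the data, moved no count of members called.

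Replicate numbers are shared between groups, but same-numbered libraries deviated together in only 3 of 18 pairs (correlations of −0.286 to 0.156), so the numbers were not read as pairs. With the replicate number as a block, 2 members in place of 1 were called lower in scivMSC against scMSC, Ifitm1 joining at −1.01 (adjusted p = 0.0440). The genes called in scMSC against Solvent went from 36 to 11, and in the other comparisons the count moved by less than 1.5 times.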
